A study of Mus musculus with 18 samples.

Results

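The nuclear proteins whose levels are commonly followed in senescent cells were examined here as a set of 10 genes of 55401 gene identifiers in the deposited table: the high mobility group (HMG) genes Hmga1, Hmga2, Hmgb1, Hmgb2 and Hmgb3, the lamin genes Lmna, Lmnb1 and Lmnb2, the lamin B receptor gene Lbr and the histone methyltransferase gene Ezh2. The genes were listed by name, with earlier results of these data known, and all 10 passed the filter on low counts in each comparison. RNA-seq was performed on 18 cultures of mouse embryonic fibroblasts (MEFs), which are primary cells grown from minced mid-gestation embryos of C57BL/6 mice. In the S6K1 series, wild-type (WT) MEFs carried an empty retroviral vector (EV) or a vector for constitutively active HRAS (RAS), and S6K1 knockout (KO) MEFs carried RAS. The S6K1/S6K2 series held WT MEFs with EV or RAS and MEFs lacking both S6K1 and S6K2 (double knockout, DKO) with RAS. Each of the 6 groups held 3 libraries, the cells of each group had been infected and drug-selected, and EV libraries of KO or DKO MEFs are not analysed here. Rps6kb1 and Rps6kb2 encode S6K1 and S6K2, kinases of ribosomal protein S6 that act downstream of mTOR. KO MEFs were littermates of their WT controls, whereas the WT controls of the DKO MEFs came from other mothers, so that litter and genotype cannot be told apart in the DKO comparison.

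HMG proteins bend or bind DNA without being histones. HMGA1 and HMGA2 bind AT-rich DNA through AT-hook motifs and are found in the heterochromatic foci of RAS-arrested fibroblasts. HMGB1, HMGB2 and HMGB3 carry HMG boxes that bend DNA, and HMGB1 can also leave the cell and act as an alarm signal. Lamins form the meshwork under the inner nuclear membrane, where B-type lamins and the lamin B receptor hold heterochromatin at the periphery. A fall in lamin B1 is a widely used mark of senescence. HMGB2 has been tied to keeping secretory genes out of heterochromatin in senescent cells, and a fall of EZH2 to the opening of the Cdkn2a locus. EZH2 is the catalytic subunit of Polycomb repressive complex 2 (PRC2), which methylates histone H3 at lysine 27. These roles are background and were not measured.

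The labels were checked first. Hras was higher with RAS in WT MEFs by 0.93 on the log2 scale (SE 0.14, adjusted p = 0.0029, by edgeR's quasi-likelihood test with Benjamini-Hochberg adjustment) in the S6K1 series and by 0.75 (SE 0.15, adjusted p = 0.00568) in the S6K1/S6K2 series. Rps6kb1 was at 23.5 to 36.9 counts per 1000000 counts of the library (CPM) in KO RAS against 61.5 to 74.5 CPM in WT RAS, a log2 difference of -1.17 with an adjusted p of 0.234, which was 0.000101 when the replicate number entered the fit as a block. In DKO RAS, Rps6kb1 (log2 difference -1.11, adjusted p = 0.00908) and Rps6kb2 (-3.18, adjusted p = 7.44e-05) were lower than in WT RAS, although the Rps6kb1 call was lost on leaving out any DKO RAS library, WT RAS replicate 2 or WT RAS replicate 3 (adjusted p from 0.07 to 0.116). Cdkn2a, the locus of p16 and p19ARF, rose with RAS by 1.00 (SE 0.18, adjusted p = 0.00652) and 1.23 (SE 0.19, adjusted p = 0.00184) on the log2 scale in the S6K1 and S6K1/S6K2 series. Library totals ranged from 8319445 to 14402442 counts. Fibroblast markers summed to 30000 to 48100 CPM in EV libraries and to 13200 to 18100 CPM in RAS libraries, with no marker at 0, and with RAS in WT MEFs 4 of 9 were called lower in either series and 1, Lum, higher in the S6K1 series (log2 1.07, adjusted p = 0.0448), beside shares of 6.09% (S6K1) and 12.7% (S6K1/S6K2) of all genes called lower. Macrophage markers, of which all 10 were detected in every group, summed to 143 to 2810 CPM in EV, 165 to 3230 CPM in WT RAS, 222 to 771 CPM in KO RAS and 70.2 to 213 CPM in DKO RAS. Epithelial markers summed to 0.61 to 10.2 CPM in EV and to 67.8 to 195 CPM with RAS (4 of 4 tested were called higher with RAS in WT MEFs of either series), and endothelial markers to 7.7 to 13.6 CPM in all groups, although Cdh5 was called higher with RAS in WT MEFs of either series (log2 5 and 6.08, adjusted p = 0.00322 and 0.000517, from at most 0.149 CPM in EV) and 1 of 3 endothelial markers tested was called lower in the S6K1/S6K2 series. Muscle markers summed to 4.36 to 27.4 CPM, with Myod1 at 0 in every group. The part of these markers in the differences between RAS and EV was not tested. In bulk RNA, fewer cells of a type and less RNA per cell cannot be told apart.

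The promoter sequences of 5 of the genes are printed because these genes carry the results. Hmga1 and Hmga2 rose with RAS, and Ezh2 was called in no comparison. Hmgb2 and Lbr, like Lmnb1 and Lmnb2, had negative log2 values in all 4 comparisons of WT, KO or DKO RAS with WT EV. Those with KO or DKO RAS also differ in genotype and reuse the EV libraries of the WT comparisons. A RefSeq promoter entry (GRCm38.p6) was matched for 9 of the 10 genes. Each sequence spans 250 bases before the transcription start of its entry to 30 bases after it, 280 in all, read 5′ to 3′ on the strand of the gene. Capitals mark exact matches, on either strand, to the AP-1 site TGAGTCA, the E2F sites TTTCCCGC, TTTCGCGC, TTTGCCGC and TTTGGCGC, the cell cycle homology element TTTGAA, the CCAAT box and the GC box GGGCGG, of which adjoining matches run together.
Hmga1, chr17:27556324-27556603, plus strand: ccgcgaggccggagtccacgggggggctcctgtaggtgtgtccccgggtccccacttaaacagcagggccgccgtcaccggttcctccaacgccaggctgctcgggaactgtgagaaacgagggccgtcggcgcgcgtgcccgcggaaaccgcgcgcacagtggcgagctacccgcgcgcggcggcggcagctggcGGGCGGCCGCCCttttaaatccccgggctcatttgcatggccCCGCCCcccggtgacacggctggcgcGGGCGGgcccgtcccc
Hmga2, chr10:120476440-120476719, minus strand: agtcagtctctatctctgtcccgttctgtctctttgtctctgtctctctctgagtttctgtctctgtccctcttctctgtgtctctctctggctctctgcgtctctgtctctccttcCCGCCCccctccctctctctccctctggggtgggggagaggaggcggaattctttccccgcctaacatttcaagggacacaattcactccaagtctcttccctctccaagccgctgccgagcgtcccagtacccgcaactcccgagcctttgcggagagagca
Hmgb2, chr8:57511593-57511872, plus strand: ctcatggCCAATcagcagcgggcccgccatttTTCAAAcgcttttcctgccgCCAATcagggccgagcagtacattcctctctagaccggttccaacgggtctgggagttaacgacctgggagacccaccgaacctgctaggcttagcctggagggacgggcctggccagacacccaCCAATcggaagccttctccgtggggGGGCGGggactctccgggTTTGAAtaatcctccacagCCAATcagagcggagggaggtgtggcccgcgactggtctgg
Lbr, chr1:181842372-181842651, minus strand: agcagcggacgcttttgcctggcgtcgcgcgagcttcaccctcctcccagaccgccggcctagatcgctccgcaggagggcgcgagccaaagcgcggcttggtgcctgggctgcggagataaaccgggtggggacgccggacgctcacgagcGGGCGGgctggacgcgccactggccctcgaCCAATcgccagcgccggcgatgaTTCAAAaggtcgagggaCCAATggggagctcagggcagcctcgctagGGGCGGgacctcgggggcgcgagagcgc
Ezh2, chr6:47595001-47595280, minus strand: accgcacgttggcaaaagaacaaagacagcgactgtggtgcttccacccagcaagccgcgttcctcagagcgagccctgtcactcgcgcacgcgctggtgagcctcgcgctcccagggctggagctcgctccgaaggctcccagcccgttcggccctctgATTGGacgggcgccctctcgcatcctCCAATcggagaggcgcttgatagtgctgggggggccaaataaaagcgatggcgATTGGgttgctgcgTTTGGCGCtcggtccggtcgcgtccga
The printed Hmgb2 sequence held 4 CCAAT boxes and 2 TTTGAA matches, and that of Lbr held 2 and 1. The Ezh2 sequence held 3 CCAAT boxes and an E2F site that began 4 bases after the start of its entry. That start lies inside the RefSeq span of Ezh2, which runs on to 47595270. Most of the printed Ezh2 window therefore lies within that span and not upstream of it. The Hmga1 and Hmga2 sequences held 4 and 1 GC boxes and none of the other letters searched. Among the entries not printed, those of Lmnb2 held no CCAAT box or TTTGAA, and that of Hmgb3, with values of both signs, held 3 CCAAT boxes and 1 TTTGAA match. Whether the matches go with the direction of the values was not tested. Of all 32851 RefSeq promoter entries cut to the same length, 36.1% held a CCAAT box, 34.7% a GC box, 17.2% TTTGAA, 4.94% the AP-1 site and 2.12% an E2F site. These matches are letters in a window and describe neither binding nor use.

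**Figure D1:**
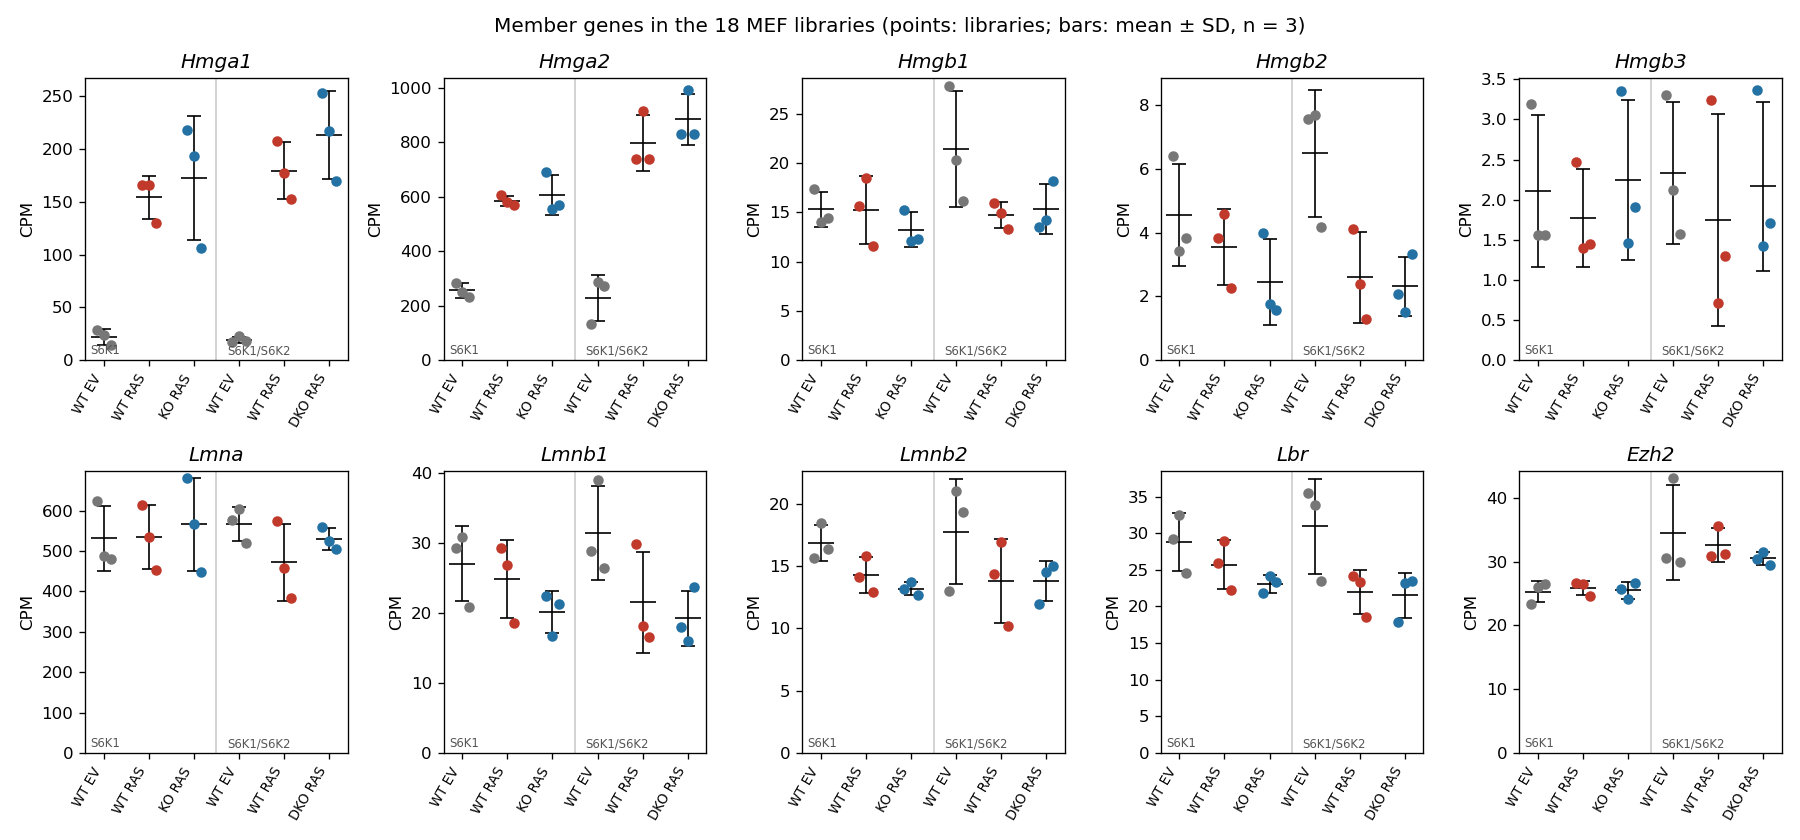
CPM of the 10 genes in each of the 18 libraries, by group, with the S6K1 series on the left and the S6K1/S6K2 series on the right of each panel. Points are libraries and bars are mean ± SD (n = 3). Hmga1 and Hmga2 are higher in every RAS library than in every EV library, and the other 8 genes lie closer together.

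Among the EV libraries, levels per kilobase of exon (CPM per kb) differed widely between the genes. Lmna, which encodes lamins A and C, stood at 125 ± 19.0 CPM per kb (SD, n = 3) in the S6K1 series and 133 ± 9.82 in the S6K1/S6K2 series. Hmga2 followed at 37.7 ± 3.91 and 33.8 ± 12.5 CPM per kb. Hmga1 (11.1 ± 3.75 and 9.6 ± 1.5), Lmnb1 (9.11 ± 1.81 and 10.6 ± 2.24) and Lbr (8.11 ± 1.12 and 8.71 ± 1.83 CPM per kb) lay next, within each other's spread. Ezh2 (4.08 ± 0.267 and 5.58 ± 1.20), Lmnb2 (3.93 ± 0.341 and 4.14 ± 0.986) and Hmgb1 (3.09 ± 0.366 and 4.33 ± 1.19 CPM per kb) were not separated beyond their spread in the S6K1/S6K2 series. Hmgb2 was at 1.69 ± 0.597 and 2.41 ± 0.738 and Hmgb3 at 0.942 ± 0.423 and 1.04 ± 0.398 CPM per kb. With RAS in WT MEFs, Hmga1 reached 77.5 ± 10.4 and 90.2 ± 13.7 CPM per kb and Hmga2 86.3 ± 2.73 and 118 ± 15.2, so that Hmga1, which lay beside Lmnb1 without RAS, stood beside Hmga2 and next to Lmna, at 126 ± 18.7 and 111 ± 22.6 CPM per kb. The Hmgb1 level is uncertain: its annotated copies held 0 to 3 counts per library, and how reads shared with such copies were counted is not given in the sources used here.

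The first comparison asked which of the genes differed between RAS-expressing and EV WT MEFs. Hmga1 and Hmga2 rose in both series, and none of the 10 fell. These were 2 of 10 genes called higher in the S6K1 series, where 7.15% of the 14036 genes tested were called higher and 6.09% lower, and 2 of 10 in the S6K1/S6K2 series, where the shares of 13881 genes were 13.5% and 12.7%. For the count of 0 lower, an unadjusted p under 0.05 was found for 0 genes lower in the S6K1 series and for Hmgb1, Hmgb2 and Lbr in the S6K1/S6K2 series. DESeq2 called the same number of genes in the S6K1 series, 2 higher and 0 lower, and 2 higher and 1 lower (Hmgb2) in the other. The median log2 difference of the 10 genes was -0.06 in the S6K1 series and -0.39 in the S6K1/S6K2 series, beside 0.00 and -0.02 over all genes tested.

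Hmga1 (chromosome 17, 27556574 to 27563672, GRCm38.p6) had the largest rise of the set. In the S6K1 series it was at 28.8, 23.3 and 14 CPM in EV and at 166, 166 and 130.4 CPM in WT RAS. In the S6K1/S6K2 series it was at 16.9, 22.5 and 17.9 CPM in EV and at 207.5, 177.8 and 153 CPM in WT RAS. Every RAS library lay above every EV library, and the groups were far apart: the lowest RAS and highest EV values were 130.4 and 28.8 CPM in the S6K1 series and 153 and 22.5 CPM in the other. The rise was 6.98-fold (log2 2.80, SE 0.32, adjusted p = 0.000788) and 9.39-fold (log2 3.23, SE 0.20, adjusted p = 3.26e-05), and only 219 of 14036 and 225 of 13881 genes tested had a larger log2 value.

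Hmga2 (chromosome 10, 120361268 to 120476469) encodes the second AT-hook protein. It was at 284.3, 249.1 and 232.6 CPM in EV and at 604.8, 579 and 569 CPM in WT RAS of the S6K1 series. In the S6K1/S6K2 series it was at 131.7, 285.1 and 270.1 CPM in EV and at 736, 915 and 738 CPM in WT RAS, so that EV replicate 1 stood below the other EV libraries. The groups did not overlap in either series. The rise was 2.29-fold (log2 1.19, SE 0.13, adjusted p = 0.000556) and 3.48-fold (log2 1.8, SE 0.27, adjusted p = 0.00159). Both HMGA genes were called under all 13 alternatives in each series.

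The HMGB genes did not pass the test in WT MEFs. Hmgb2 (chromosome 8, 57511843 to 57515999) is a low-count gene, with 14 to 92 counts per library. It was at 6.40, 3.42 and 3.84 CPM in EV and 3.84, 4.59 and 2.25 CPM in WT RAS of the S6K1 series, which overlap. In the S6K1/S6K2 series it was at 7.58, 7.68 and 4.19 CPM in EV and 4.10, 2.38 and 1.295 CPM in WT RAS, where each RAS library was below each EV library, by a narrow margin between 4.19 and 4.10. The log2 differences were -0.36 (SE 0.42, adjusted p = 0.643) and -1.33 (SE 0.46, adjusted p = 0.0598). There, 5 of 13 alternatives called Hmgb2 lower, with adjusted p from 0.0254 to 0.176 over all of them. Among the 5 were the fits without WT EV replicate 3 (log2 -1.55, adjusted p = 0.0366) and without WT RAS replicate 1 (log2 -1.83, adjusted p = 0.029).

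Hmgb1 (chromosome 5, 149046702 to 149053057) gave a log2 difference of 0.00 (95% interval -0.44 to 0.44) in the S6K1 series, with 14.1 to 17.4 CPM in EV and 11.6 to 18.5 CPM in RAS. EV libraries of the S6K1/S6K2 series held 16.2 to 27.8 CPM and RAS libraries 13.3 to 15.97 CPM, a log2 difference of -0.54 (95% interval -1.02 to -0.05, adjusted p = 0.094) without overlap. Without WT EV replicate 3 it was -0.69 with an adjusted p of 0.0321. Hmgb3 (chromosome X, 71555917 to 71560673), with 6 to 46 counts per library, is too shallow to place within narrow limits. Its log2 differences were -0.26 (95% interval -1.25 to 0.73) and -0.41 (-1.68 to 0.86).

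The lamin genes did not pass the test in either series. Lmnb1 (chromosome 18, 56707813 to 56753424) was at 29.2, 30.9 and 20.9 CPM in EV and 29.2, 26.8 and 18.6 CPM in WT RAS of the S6K1 series. In the S6K1/S6K2 series it was at 28.8, 38.9 and 26.5 CPM in EV and 29.8, 18.1 and 16.6 CPM in WT RAS. RAS replicate 1 of the S6K1/S6K2 series lay among the EV values, and the other two RAS libraries lay below all of them. The log2 differences were -0.12 (SE 0.22, adjusted p = 0.77) and -0.55 (SE 0.25, adjusted p = 0.137). Without that RAS library the S6K1/S6K2 difference was -0.86 with an adjusted p of 0.0288.

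Lmnb2 (chromosome 10, 80901363 to 80918245), the second B-type lamin gene, had log2 differences of -0.24 (95% interval -0.54 to 0.07) and -0.37 (-0.90 to 0.17). Lmna (chromosome 3, 88481148 to 88509932) had 0.01 (-0.41 to 0.43) and -0.26 (-0.62 to 0.09). Lbr (chromosome 1, 181815315 to 181842401) was at 24.6 to 32.5 CPM in EV and 22.2 to 28.9 CPM in WT RAS of the S6K1 series, and at 23.5 to 35.5 CPM and 18.5 to 24.2 CPM in the S6K1/S6K2 series. Its log2 differences were -0.17 (adjusted p = 0.524) and -0.49 (adjusted p = 0.0867), and the latter was -0.65 (adjusted p = 0.0225) without WT EV replicate 3. Same-numbered libraries of Lbr, and also of Hmgb3, were lower with RAS in 3 of 3 pairs of each series. The same held for Lmnb2 in the S6K1 series and for Hmgb1, Hmgb2 and Lmna in the S6K1/S6K2 series. The share of all genes with such pairs was not counted.

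Ezh2 (chromosome 6, 47530274 to 47595270) had the smallest standard error of the set in the S6K1 series, 0.11 on the log2 scale. It was at 23.4, 26.0 and 26.5 CPM in EV and 26.6, 26.5 and 24.6 CPM in WT RAS there, and at 30.6, 43.2 and 29.9 CPM in EV and 30.9, 35.7 and 31.2 CPM in WT RAS of the S6K1/S6K2 series. The groups overlapped in both. The log2 difference was 0.03 with a 95% interval of -0.22 to 0.29, and -0.09 with an interval of -0.43 to 0.26, so a fall beyond 0.43 on the log2 scale lay outside both intervals. Ezh2 was called under none of 13 alternatives in either series, with adjusted p from 0.755 to 0.97 in the S6K1 series and from 0.469 to 0.872 in the other.

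**Figure D2:**
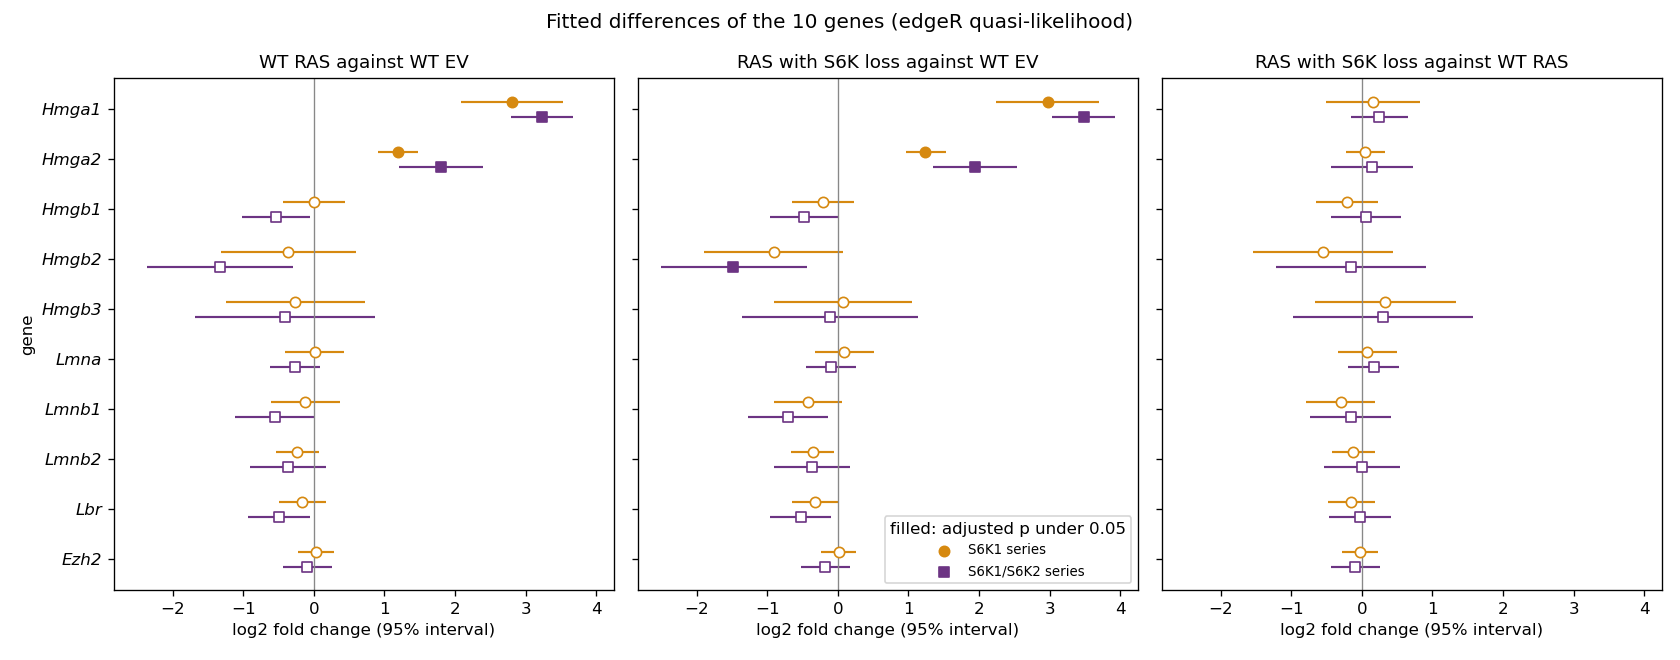
Fitted log2 fold changes of the 10 genes with 95% intervals, in 3 panels for WT RAS against WT EV, KO or DKO RAS against WT EV, and KO or DKO RAS against WT RAS. Circles are the S6K1 series, squares the S6K1/S6K2 series, and filled symbols have an adjusted p under 0.05. Hmga1 and Hmga2 are filled in the first 2 panels, Hmgb2 is filled once, for DKO RAS against EV, and no symbol is filled in the last panel.

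The RAS effects of the series were compared directly in a fit over all 18 libraries. None of the 10 genes differed between the series, with adjusted p from 0.429 to 0.935, 0 genes at an unadjusted p under 0.05 and 0 by DESeq2. Over all 14483 genes tested, the share called was 0%. The difference (S6K1/S6K2 series minus S6K1 series) was 0.59 for Hmga2 (95% interval -0.06 to 1.25), 0.42 for Hmga1 (-0.40 to 1.23), -0.98 for Hmgb2 (-2.37 to 0.40), -0.55 for Hmgb1 (-1.18 to 0.09) and -0.44 for Lmnb1 (-1.20 to 0.31). The wide intervals leave differences of these sizes undecided, and series and batch cannot be told apart in them.

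The second question was whether loss of S6K1, or of S6K1 and S6K2, changed the genes in RAS-expressing MEFs. None of the 10 was called in KO RAS against WT RAS, where 0.00712% of genes were called, or in DKO RAS against WT RAS, where 0.0216% were. An unadjusted p under 0.05 was found for 0 of the 10 in either comparison, and DESeq2 called 0. These fits do not use the replicate numbers. With the replicate block, 583 of all genes were called in KO RAS against WT RAS, and none of the 10. Hmga1 was at 218, 193.5 and 106 CPM in KO RAS and at 253, 217 and 169.5 CPM in DKO RAS, and both groups overlapped WT RAS, with KO RAS replicate 3 below every WT RAS library. The log2 differences were 0.16 (95% interval -0.51 to 0.83) and 0.25 (-0.15 to 0.65). Hmga2 was at 688, 554 and 570.4 CPM in KO RAS and 828, 990.5 and 829.7 CPM in DKO RAS, with differences of 0.05 (-0.23 to 0.33) and 0.15 (-0.43 to 0.72).

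Hmgb2 was at 3.996, 1.76 and 1.58 CPM in KO RAS and 2.08, 1.52 and 3.33 CPM in DKO RAS. Both groups overlapped WT RAS, with log2 differences of -0.55 (95% interval -1.54 to 0.44) and -0.15 (-1.22 to 0.91). Lmnb1 was at 22.4, 16.7 and 21.3 CPM in KO RAS and 18, 16 and 23.6 CPM in DKO RAS, with differences of -0.30 (-0.79 to 0.18) and -0.16 (-0.73 to 0.41). Ezh2 had the narrowest interval in KO RAS, -0.02 (-0.28 to 0.23), and -0.09 (-0.44 to 0.26) in DKO RAS. The loss effects of the series did not differ for any of the 10 genes (adjusted p = 1, 0 at an unadjusted p under 0.05, 0 by DESeq2), beside 0.0069% of genes called. Macrophage markers were lower with S6K1 loss at an unadjusted p under 0.05 in 10 of 10, beside 6.86% of all genes in either direction. After adjustment or by DESeq2, 0 were called. With the replicate block 10 were called, in a fit that called 3.61% of all genes lower. Their sums in the S6K1 series overlapped, at 222 to 771 CPM in KO RAS and 643 to 3230 CPM in WT RAS. In DKO RAS against WT RAS 10 of 10 had negative values (median log2 -1.96), with 0 called, 1 at an unadjusted p under 0.05 and 0 by DESeq2. Their part in the values of the 10 genes was not tested.

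KO RAS and DKO RAS MEFs were also set against WT EV. These comparisons share their EV libraries with the WT comparison, so the values stand side by side and are not independent of it. Hmga1 was 7.82-fold higher in KO RAS (log2 2.97, SE 0.32, adjusted p = 0.000475) and 11.2-fold higher in DKO RAS (log2 3.48, SE 0.20, adjusted p = 2.28e-05). Hmga2 was 2.37-fold (log2 1.24, SE 0.13, adjusted p = 0.000352) and 3.85-fold higher (log2 1.95, SE 0.27, adjusted p = 0.00108). In KO RAS, 2 of 10 genes were called higher and 0 lower, beside 9.55% and 8.56% of all genes. For the count of 0, an unadjusted p under 0.05 was found for Lmnb2, and DESeq2 called 0 lower. In DKO RAS, 2 were called higher and 1 lower, beside 13.1% and 12.6% of all genes.

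The gene called lower in DKO RAS was Hmgb2, with a log2 difference of -1.48 (SE 0.46, adjusted p = 0.0419). Its DKO libraries lay between 1.52 and 3.33 CPM, below EV at 4.19 to 7.68 CPM. The call was lost without EV replicate 1 (adjusted p = 0.0848), EV replicate 2 (0.113), DKO replicate 1 (0.114) or DKO replicate 2 (0.139). Lmnb1 (log2 -0.71, adjusted p = 0.067) and Lbr (-0.52, adjusted p = 0.0725) did not pass the test, although every DKO library was below every EV library. The share of all genes without such overlap was not counted. Without EV replicate 3, Lbr (-0.68, adjusted p = 0.0187) and Hmgb1 (-0.64, adjusted p = 0.0428) were called lower in DKO RAS.

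In the S6K1 series, where same-numbered libraries deviated together, the fit with the replicate block called 3 genes lower in KO RAS than in EV. These were Hmgb2 (log2 -0.93, adjusted p = 0.0302), Lmnb2 (-0.35, adjusted p = 0.024) and Lbr (-0.31, adjusted p = 0.0354). Without the block, their adjusted p was 0.19, 0.11 and 0.178. In that blocked fit 20.7% of all genes were called higher and 20.4% lower, so 3 of 10 lower is close to the share over all genes. Each of the 3 was lower in 3 of 3 same-numbered pairs, as was Hmgb1, which was not called. The blocked fit rests on these same pairs, so their direction adds no support to the calls.

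The genes that fell or leaned lower were next read beside 30 cell cycle genes, a list of replication and mitosis genes that holds none of the 10. In WT MEFs with RAS, 18 of 30 were called lower in the S6K1/S6K2 series (median log2 -1.05), beside 12.7% of all genes, among them Mcm3 (-1.63, adjusted p = 0.00228), Mcm2 (-1.05, adjusted p = 0.0025) and Mcm4 (-0.83, adjusted p = 0.00843), which encode subunits of the replicative helicase. In the S6K1 series 3 of 30 were called lower (median -0.32), beside 6.09% of all genes. With the replicate block these counts were 11 and 8, beside 13.7% and 18.1% of all genes lower. In the S6K1/S6K2 series this block also covered the DKO libraries, which were not taken as paired by number. In KO RAS against EV, 11 of 30 were lower, and 26 with the block, beside 8.56% and 20.4% of all genes. Between KO RAS and WT RAS, 28 of 30 had a negative value (median -0.49) and 0 were called (10 at an unadjusted p under 0.05, 0 by DESeq2, 2 with the block). Between DKO RAS and WT RAS the median was 0.03.

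Across the 18 libraries, each centred on its series, Lmnb1 (Pearson r = 0.93) and Hmgb2 (r = 0.90) followed the mean of the cell cycle list most closely. Lbr (r = 0.76), Lmnb2 (0.71) and Hmgb1 (0.70) came next, followed by Lmna (0.49), Hmgb3 (0.39) and Ezh2 (0.39). With each group's own mean removed, r was 0.92 for Lmnb1 and 0.76 for Hmgb2, 0.63 for Lmna and 0.32 to 0.49 for the other 7 genes. The S6K1/S6K2 WT RAS replicate 1, which had the highest Lmnb1 of the RAS libraries, also had the highest cell cycle mean of its group, at 0.22 beside a lowest of -0.77 on the centred log2 scale. These values are descriptions over 18 libraries that share depth and scaling with the list, and carry no p. Hmga1 and Hmga2 had negative pooled values (r = -0.70 and -0.68), and their libraries fell into an EV and a RAS cluster.

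**Figure D3:**
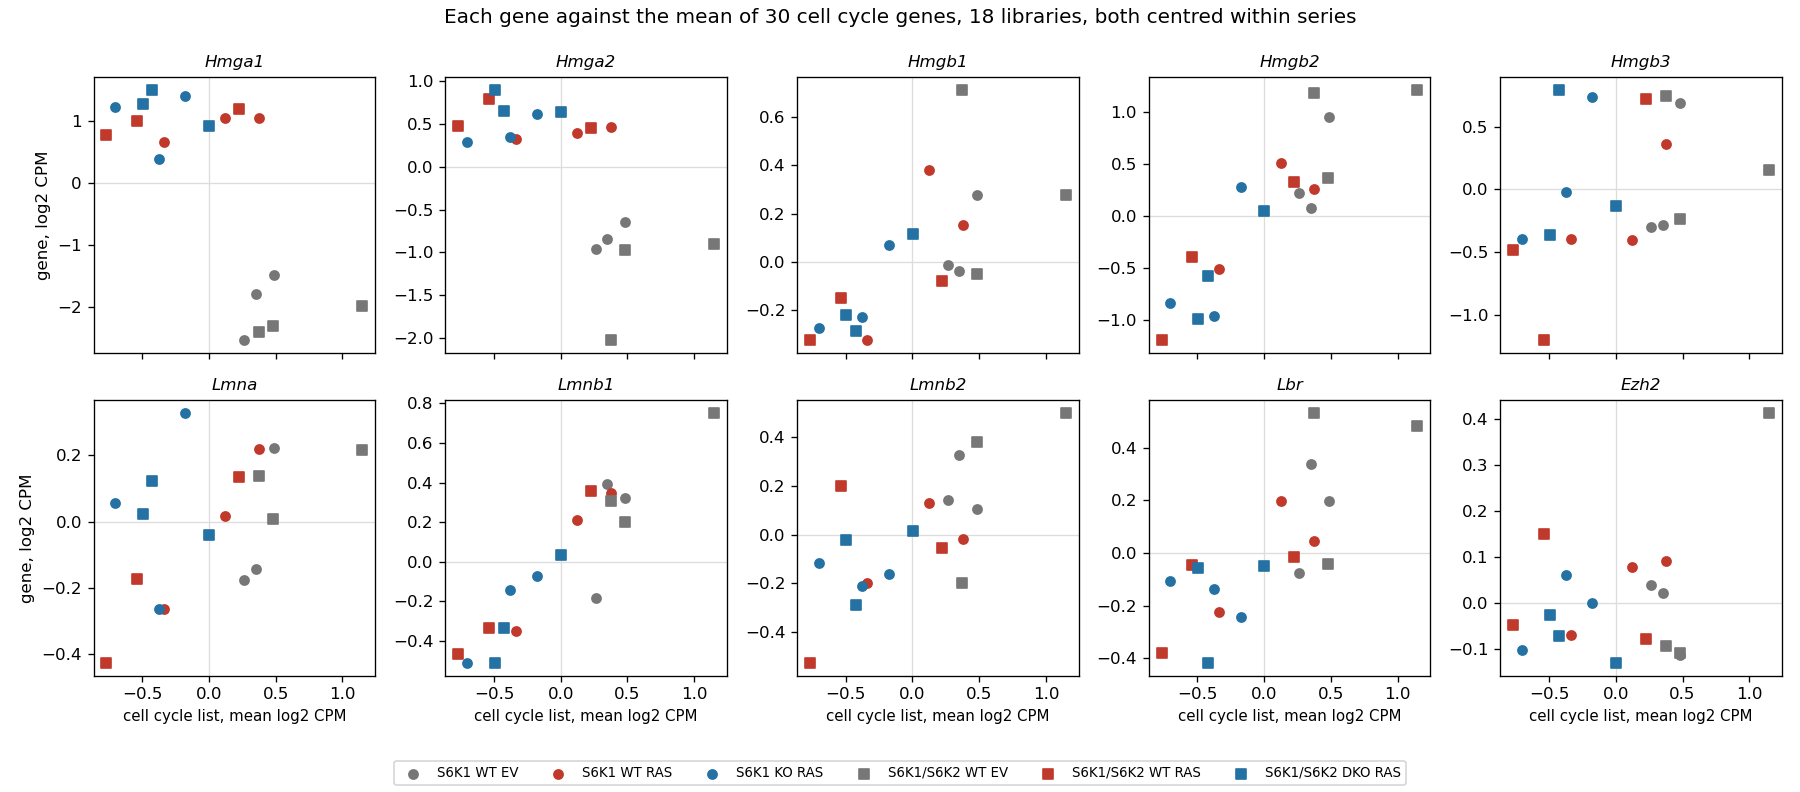
Log2 CPM of each gene (vertical axis) against the mean log2 CPM of the 30 cell cycle genes (horizontal axis) in the 18 libraries, both centred within series. Grey marks WT EV, red WT RAS and blue KO or DKO RAS, with circles for the S6K1 and squares for the S6K1/S6K2 series. Lmnb1 and Hmgb2 rise along the axis in EV and RAS libraries alike, Hmga1 and Hmga2 form a separate EV cluster, and Ezh2 stays within a narrow band except for 1 EV library.

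The genes whose profiles were most like those of the set, taken by the highest r among genes of at least 10 CPM, were Mcm5 (0.95), Ccnb2 (0.94) and Lig1 (0.93) for Lmnb1 and Tyms, Pla2g16 and 2810417H13Rik (0.93 each) for Hmgb2. For Hmga2 they were Mpp6, Elk3 and Tnfaip2 (0.99 each), a likeness set largely by the EV and RAS clusters. For Ezh2 they were Bhlhb9 (0.77), Ttc15 (0.75) and Rad21 (0.72). Each value is over the 18 libraries.

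Other genes of the same families and complexes were counted from lists. With RAS in WT MEFs, 7.15% of all genes were called higher and 6.09% lower in the S6K1 series. The shares were 13.5% and 12.7% in the S6K1/S6K2 series, and the list counts below are to be read beside them. In the rest of the HMG family, 12 genes were tested and 3 were called higher with RAS in WT MEFs of either series. Among them were Hmgn5, a nucleosome-binding HMG protein gene (log2 2.15 in the S6K1 and 1.72 in the S6K1/S6K2 series, adjusted p = 0.00207 and 0.00104), and Tox3 (1.71 and 1.51, adjusted p = 0.0275 and 0.0109). Tox, an HMG-box factor gene, was lower (-2.90 and -2.70, adjusted p = 0.00127 and 0.000304), and lower calls were 1 and 2 of 12.

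Around the lamina, 13 genes of lamin partners and of the LINC complex, which ties the nucleus to the cytoskeleton, were tested. Of these, 2 were called lower in the S6K1/S6K2 series, Tor1aip1, which encodes the lamina-associated protein LAP1 (-0.88, adjusted p = 0.00566), and Sun2 (-0.40, adjusted p = 0.049), and 0 were called in the S6K1 series (3 at an unadjusted p under 0.05, 1 by DESeq2). With the replicate block, 2 were higher and 3 lower there, beside 18.1% of all genes in each direction. Among 6 genes of lamin processing, Icmt, the methyltransferase of the farnesylated end, was higher in both series (1.22 and 1.20, adjusted p = 0.00121 and 0.00568), and Fnta, a farnesyltransferase subunit gene, was lower in the S6K1/S6K2 series (-0.49, adjusted p = 0.0114). Among nuclear pore genes, 3 of 23 were called in the S6K1/S6K2 series, Nup88 (0.47, adjusted p = 0.0123) and Ahctf1 (0.62, adjusted p = 0.0258) higher and Nup85 (-0.51, adjusted p = 0.02) lower, and 0 of 24 in the S6K1 series (2 at an unadjusted p under 0.05, 0 by DESeq2, 2 with the block). In either direction, 26.3% of all genes were called in the S6K1/S6K2 series and 13.2% in the S6K1 series.

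Among 11 partners of Ezh2 in PRC2, Rbbp4, a histone-binding subunit gene shared with other complexes, was called lower in the S6K1/S6K2 series (-0.41, adjusted p = 0.0255), and 0 were called in the S6K1 series (0 at an unadjusted p under 0.05, 0 by DESeq2). The H3K27 demethylase genes Kdm6a and Kdm6b were not called in either series (0 at an unadjusted p under 0.05, 0 by DESeq2), and the block gave 1 lower call in the S6K1 series. Of 16 PRC1 genes, 2 were called higher and 5 lower in the S6K1/S6K2 series, beside 13.5% and 12.7% of all genes, and 1 of each in the S6K1 series, beside 7.15% and 6.09% (2 higher and 6 lower with the block). Pcgf5 (1.3, adjusted p = 0.000815) and Phc2 (0.76, adjusted p = 0.00124) were higher and Cbx6 (-1.04, adjusted p = 0.00434) was lower in the S6K1/S6K2 series.

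Of 9 genes for heterochromatin protein 1 and H3K9 methylation, Suv39h1, an H3K9 methyltransferase gene, was higher in both series (1.14 and 1.32, adjusted p = 0.000631 and 0.00087) and Cbx5, which encodes HP1 alpha, was lower in both (-0.53 and -0.57, adjusted p = 0.0419 and 0.0203). Among 12 genes of heterochromatin foci and histone chaperones, 2 were lower in the S6K1 series, and 4 were lower and 1 higher in the other. Of all genes, 6.09% and 12.7% were called lower in these series. Macroh2a2, a histone variant gene of such foci, fell in both (-0.80 and -1.31, adjusted p = 0.00258 and 0.00201), as did Ubn1, a subunit gene of the HIRA chaperone (-0.65 and -0.91, adjusted p = 0.0197 and 0.00731). Of the linker histone and H2A variant genes, 2 of 6 were lower in the S6K1/S6K2 series, H2ax (-0.90, adjusted p = 0.0101) and H1f10 (-1.25, adjusted p = 0.0219), and 0 of 7 were called in the S6K1 series (2 at an unadjusted p under 0.05, 1 by DESeq2, 3 with the block). No gene of the let-7 and HMGA2 regulator list or of the HMGB1 receptor list was called with RAS in WT MEFs (in each list, 0 at an unadjusted p under 0.05 in the S6K1 series and 1 in the other, and by DESeq2 at most 1).

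Of the chromatin and lamina lists together, 11 of 122 genes were called with RAS in WT MEFs of the S6K1 series and 29 of 121 in the S6K1/S6K2 series. These are 9.02% and 24%, beside 13.2% and 26.3% of all genes called in either direction. With the replicate block, 11 were higher and 20 lower in the S6K1 series, beside 18.1% of all genes in each direction. Of the same lists, 0 of 122 genes were called in KO RAS against WT RAS (3 at an unadjusted p under 0.05, 0 by DESeq2, 2 lower with the block) and 0 of 121 in DKO RAS against WT RAS (1 at an unadjusted p under 0.05, 0 by DESeq2).

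**Figure D4:**
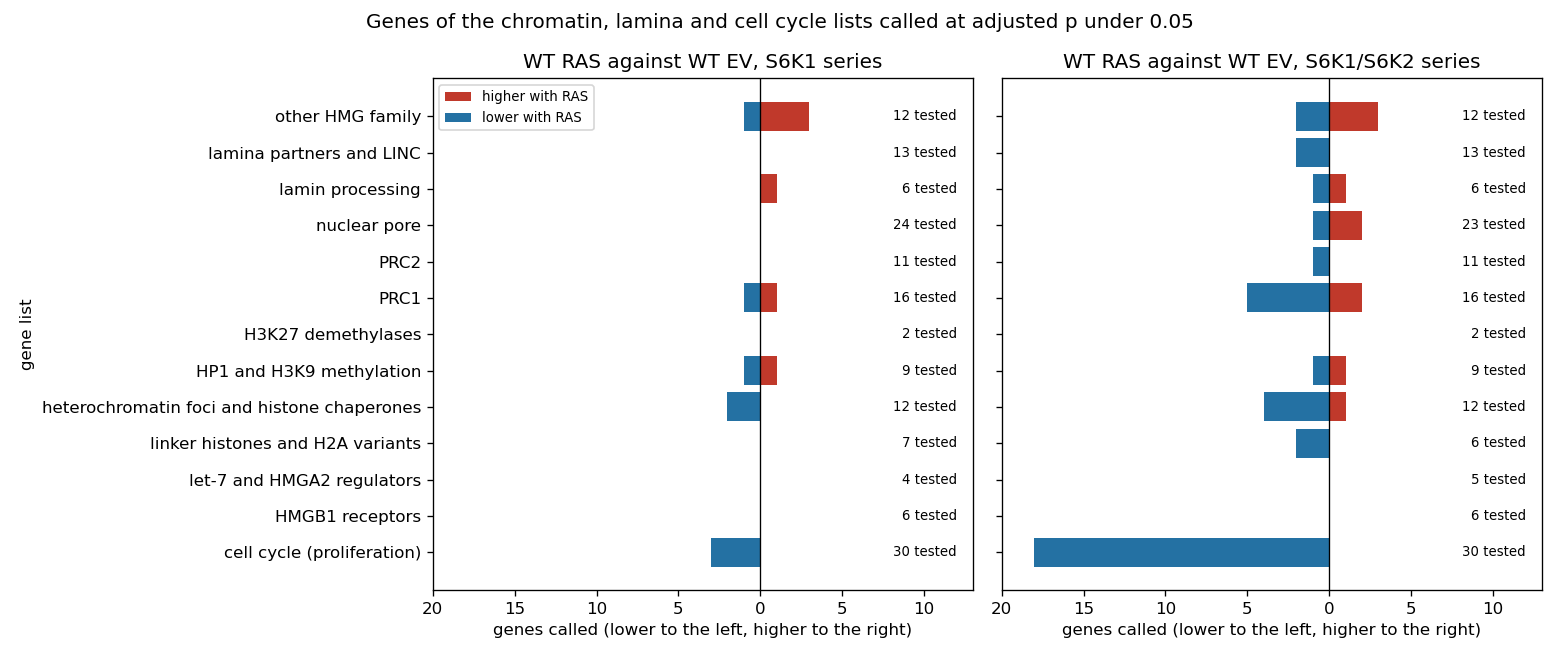
Number of genes of each list called higher (right, red) or lower (left, blue) with RAS in WT MEFs at an adjusted p under 0.05, for the S6K1 series (left panel) and the S6K1/S6K2 series (right panel), with the number tested beside each bar. The longest bar is the cell cycle list of the S6K1/S6K2 series, with 18 of 30 lower.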

How the data were processed

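RNA-seq was performed on 18 MEF libraries in 6 groups of 3, and the groups were taken from the labels. The authors deposited raw counts per gene, with no normalization. The methods of the study name TopHat, the mm9 genome and HTSeq, with single-end reads of stranded libraries, whereas the processing notes of the submitters name STAR 2.7.1a, DESeq2 1.28.1, CASAVA and mm10, so the mapping behind the counts is not settled. Gene positions and promoters are from RefSeq (GRCm38.p6), and exon lengths, used for CPM per kb, from GENCODE vM1. Symbols were matched for 32589 of 55401 identifiers, which held 99.1% of the counts.

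Counts were tested with edgeR 4.0.16 in R 4.3.3 by two-sided quasi-likelihood tests, with each series of 9 libraries fitted alone, group as the only term, genes kept by filterByExpr (minimum count 10), TMM scaling and Benjamini-Hochberg adjustment over all genes tested (threshold 0.05). Differences between the series were tested over all 18 libraries. CPM are counts per 1000000 of the library total times its TMM factor. The standard error is the absolute log2 fold change divided by the square root of F. Intervals are 95%. The test was checked on simulated counts of WT RAS against WT EV. Of 100 genes changed by 1 on the log2 scale, 34% were recovered in the S6K1 series and 55% in the S6K1/S6K2 series. Of 100 changed by 2, 83% and 79% were recovered, so a gene that was not called may still differ. Alternatives were DESeq2 1.42.0, other scalings and filters, annotated gene copies summed in (chosen after seeing the data), the replicate block, and leaving out each library. The replicate block was fitted to every library of a series, so in the S6K1/S6K2 series it also paired the DKO libraries.

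The members and lists were chosen with earlier results of these data known. Named were the 10 genes, the genes that check the labels, at most 3 genes per list with the smallest adjusted p in WT RAS against WT EV of the S6K1/S6K2 series, and for 4 genes the 3 most alike. The labels number the replicates alike across groups. Deviations from group means correlated between same-numbered libraries at 0.373 to 0.672 in the S6K1 series and at 0.301 to 0.381 for WT RAS and WT EV of the S6K1/S6K2 series, which were taken as paired, KO and WT MEFs being littermates. With DKO they were -0.105 to 0.424 and were not taken as paired. Chi-square values of 7.98 or more per degree of freedom separated each of the 18 pairs of replicates, which were all kept. The study describes RAS-infected MEFs from independent embryo pairs of different mothers, but the labels tie no library to an embryo. The p-values therefore set group differences against the spread between these libraries, and are read for these samples only.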

Additional observations from a re-analysis of the deposited data

Results flagged for a closer look

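The loss effect on Rps6kb2 differed between the series by -3.11 on the log2 scale (adjusted p = 9.1e-07, edgeR's quasi-likelihood test of the difference), which follows the labels, since Rps6kb2 is deleted in DKO MEFs and not in KO MEFs. No difference between the series was called for the 10 genes.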

How the results depend on the processing

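Over 116 alternative counts of called members, 112 stayed within 1.5 times the reported count. With the replicate block, 5 members were called in KO RAS against EV in place of 2. Leaving out 1 library gave 2 to 5 called members for WT RAS against WT EV of the S6K1/S6K2 series (5 without WT EV replicate 3, with Hmgb1, Hmgb2 and Lbr lower, and 4 without WT RAS replicate 1, with Hmgb2 and Lmnb1 lower) and 2 to 5 for DKO RAS against EV (5 without WT EV replicate 3). DKO libraries were not paired by number (correlations down to -0.105), and with the block DKO RAS against EV gave 2 called members in place of 3. The block changed no other count of members. Rps6kb1 in DKO RAS against WT RAS lost its call in 5 of the leave-one-out fits (adjusted p from 0.07 to 0.116). For Lmnb1 in DKO RAS against EV, DESeq2 (adjusted p = 0.0493) and the unfiltered fit (0.023) made a call. Over all genes, calls went from 1859 to 5085 with the block for WT RAS against WT EV of the S6K1 series (1043 to 1818 without 1 library), from 2542 to 5766 for KO RAS against EV (1325 to 2139) and from 1 to 583 for KO RAS against WT RAS (96 by DESeq2, 108 unfiltered, 0 to 22 without 1 library). For DKO RAS against WT RAS, 3 calls became 8 with the block, 10 by DESeq2, 11 unfiltered, 2 with upper-quartile scaling or 10 counts in every library, and 1 to 2 without 1 library. Leaving out 1 library gave 2050 to 4199 calls in place of 3646 for WT RAS against WT EV of the S6K1/S6K2 series and 1999 to 4044 in place of 3565 for DKO RAS against EV. The difference of RAS effects, with 0 calls, gave 58 with the block, 142 by DESeq2, 204 unfiltered and 0 to 290 without 1 library. The cause of these changes was not tested.

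Of 1155 alternative log2 values of the members, 1063 kept direction and call, 15 gained a call, 5 lost one and 72 changed sign, 61 of these on leaving out 1 library and 0 with an adjusted p under 0.05. Hmgb1 in WT RAS against WT EV of the S6K1 series was 0.0026 by DESeq2, 0.0033 with RLE size factors, 0.0048 unfiltered and 0.0012 with 10 counts in every library. With upper-quartile scaling, Ezh2 in KO RAS against EV was -0.0181 and Lmnb2 in DKO RAS against WT RAS was -6e-04, and the latter was -0.0049 with 10 counts in every library. Hmgb3 in the difference of loss effects was -7e-04 by DESeq2, -0.0016 with RLE size factors, -0.0176 with upper-quartile scaling and -0.0076 unfiltered. Hmgb3 was not tested with 10 counts in every library in the fits that held the S6K1/S6K2 series. The values that changed sign on leaving out 1 library lay within the ranges given next. For WT RAS against WT EV in the S6K1 series, the ranges were Ezh2 -0.029 to 0.0698, Hmgb1 -0.1532 to 0.1597, Hmgb3 -0.5719 to 0.1711, Lmna -0.1022 to 0.1311 and Lmnb1 -0.2746 to 0.0512. For KO RAS against WT RAS, the ranges were Ezh2 -0.0569 to 0.0174, Hmga1 -0.0514 to 0.417, Hmga2 -0.0653 to 0.1086, Hmgb3 -0.084 to 0.6464 and Lmna -0.0821 to 0.2259. For KO RAS against EV, the ranges were Ezh2 -0.0724 to 0.0522, Hmgb3 -0.3564 to 0.479 and Lmna -0.0853 to 0.235. For WT RAS against WT EV in the S6K1/S6K2 series, the range was Ezh2 -0.1694 to 0.1096. For DKO RAS against WT RAS, the ranges were Hmgb1 -0.0836 to 0.1403, Hmgb2 -0.5136 to 0.3512, Hmgb3 -0.1591 to 1.0777, Lbr -0.1416 to 0.0857, Lmnb1 -0.333 to 0.1517 and Lmnb2 -0.1766 to 0.1742. For DKO RAS against EV, the ranges were Ezh2 -0.2645 to 0.012 and Hmgb3 -0.5685 to 0.226. For the difference of RAS effects, the ranges were Ezh2 -0.2233 to 0.0523, Hmgb3 -0.929 to 0.1922 and Lmnb2 -0.3319 to 0.0367. For the difference of loss effects, the ranges were Ezh2 -0.084 to 0.0343, Hmga1 -0.1404 to 0.3264, Hmgb3 -0.476 to 0.7688, Lmna -0.0307 to 0.2765 and Lmnb2 -0.0289 to 0.3255. The low counts of Hmgb2 and Hmgb3 limit how small a difference could be seen.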
